A study of Caenorhabditis elegans with 15 samples.

Results

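The comparison set Elbe sediment against Rhine sediment after 48 h and used 10 of the 15 arrays of the series, chosen by the sediment named in their labels. It asked which genes and gene functions separated worms kept in these polluted sediments. *C. elegans* var. Bristol, strain N2, grown to the fourth juvenile stage and young adulthood, was exposed for 48 h to sediment of the Elbe at Magdeburg or of the Rhine at Bimmen, which the study ranks as highly and moderately contaminated. Each replicate pooled 24 vials, each with 0.5 g of sediment, *E. coli* as food and 20000 worms, and both groups had 5 replicates. Cy5 carried the cDNA of the exposed worms, made from 10 µg of total RNA, and Cy3 carried a common reference made from RNA of all sediment exposures and of the laboratory control. No unexposed worms were hybridized on their own in the arrays used here. The replicates were repeat exposures to one sediment per river as far as the study's methods tell, so that the p-values measure the spread between exposures and arrays and not between river sites. The 5 arrays of worms in Danube sediment, the least contaminated of the series, are given only as levels beside named genes.

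River sediment binds metals and hydrophobic organic compounds, and a worm that feeds in it takes up particles together with bacteria. In nematodes, cytochrome P450 enzymes oxidize foreign and endogenous lipophilic compounds, glutathione S-transferases and UDP-glucuronosyltransferases conjugate them, and heat shock proteins, antioxidant enzymes and metal-binding proteins answer protein, oxidative and metal stress. The intestine is also the site of digestion and of defence against ingested microbes, through secreted cysteine proteases, lysozymes, saposin-like proteins and C-type lectins.

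The values below are normalized log2 ratios of the worm signal to the reference signal, and a log2 difference is the Elbe mean minus the Rhine mean. Of 19084 probes, 6380 were tested because the image software graded them better than its lowest class on 3 or more Elbe and 3 or more Rhine arrays, and 6051 of these matched 1 gene by its sequence name. Median Cy5 signals over gene spots ran from 1432.9 to 1803.9 on the Elbe arrays and from 1455.5 to 1984 on the Rhine arrays, and 45.67 to 55.47% of gene spots carried the lowest grade. None of 4 array measures separated the sediments in exact two-sided permutation tests (lowest adjusted p = 0.317). Rhine replicate 1 stood apart, with the highest median Cy3 signal of the Rhine arrays (1585.9, the others 985.5 to 1155) and the widest spread of log2 ratios (interquartile range 1.21, the other 9 arrays 0.64 to 0.94). Profiles of the kept probes correlated weakly. Across probes, Pearson's r was 0.13 to 0.31 within Elbe, 0.06 to 0.14 within Rhine and 0.01 to 0.16 between the sediments. The scanner image numbers of the Elbe arrays ran from 423 to 429 and those of the Rhine arrays from 436 to 441, but no label says what these numbers stand for, and the array headers name no batch that differs between the sediments. If the numbers follow the order of the arrays, that order and the sediment cannot be told apart. The image numbers of Danube replicates 1 to 4 ran from 284 to 289, and that of Danube replicate 5 was 433. What this gap does to the Danube levels was not tested.

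Only 1 probe of 6380 (0.0157%) differed between the sediments at an adjusted p under 0.05 in limma, F41F3.3, while 683 probes (10.7%) had an unadjusted p under 0.05. At the thresholds of the study's methods, an unadjusted p under 0.05 and a ratio of at least 1.4 or at most 0.7, 173 probes (2.71%) were higher and 499 probes (7.82%) were lower in Elbe. The excess of lower probes moved with the centring of the arrays. The median log2 difference over all kept probes was -0.16 rather than 0, and once each array was centred on its kept probes the counts were 270 higher and 334 lower. In the Cy5 signal alone, without division by the reference, 392 probes were higher and 193 lower. That signal was rebuilt after print-tip loess of the ratio and quantile normalization across arrays of the mean signal of both channels. The reference thus still entered through that mean. Cy5 differences of single genes below are instead signals without loess, centred on the kept probes. Without print-tip loess, with median centring alone, the counts were 106 and 1196, and with loess fitted on the kept probes 267 and 328. The authors' value table, whose rows followed the Cy5 signal, gave 435 and 162. These normalizations of the ratio all left more lower than higher probes, and the split turned only in the values that did not divide by the reference. List medians are read against the median of all kept probes, while the differences of single genes and the thresholds are measured from 0. The 5 Elbe values lay wholly above the 5 Rhine values for 47 probes (0.737%) and wholly below them for 154 (2.41%).

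**Figure D1:**
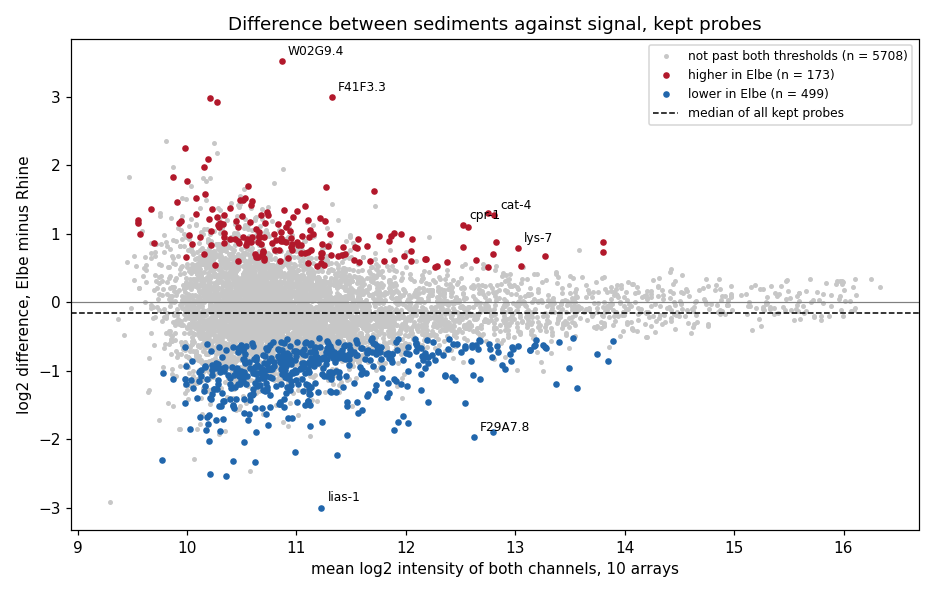
Each point is 1 of the 6380 kept probes, with the mean log2 intensity of both channels over 10 arrays on the x axis and the log2 difference, Elbe minus Rhine, on the y axis. The 173 red and 499 blue probes passed both thresholds, the dashed line is the median of -0.16, and F41F3.3 and W02G9.4 lie far above the cloud.

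F41F3.3, a protein-coding gene, rose in Elbe against Rhine. Its log2 ratios were 2.30, 1.14, 2.18, 1.70 and 1.45 on Elbe replicates 1 to 5 and -1.07, -1.62, -0.47, -0.66 and -2.37 on Rhine replicates 1 to 5. Every Elbe array lay above every Rhine array. The log2 difference was 2.99 (SE 0.39), or 7.96-fold, with an adjusted p of 0.047 by limma, and the Danube arrays had -1.35 ± 1.08 (SD, n = 5), near the Rhine mean of -1.24 ± 0.77 (SD, n = 5). Both channels moved. With each channel centred on the kept probes, the Cy5 signal was 2.03 higher in Elbe on the log2 scale and the Cy3 signal of the common reference was 1.17 lower. The spot was above the lowest grade on 5 Elbe arrays and 3 Rhine arrays. The call did not survive the loss of most single arrays. Leaving out 1 array at a time gave adjusted p-values from 0.031, without Rhine replicate 5, to 0.226, without Elbe replicate 3, and it held only without Rhine replicate 5, while the log2 difference stayed between 2.71 and 3.18.

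Of the genes higher in Elbe with the lowest p, *cat-4*, *cpr-1* and *lys-7* were bright in both sediments. *cat-4* encodes GTP cyclohydrolase, the first enzyme of tetrahydrobiopterin synthesis, a cofactor for dopamine and serotonin production. It had log2 ratios of 0.97, 0.75, 0.75, 1.14 and 0.54 in Elbe and -0.32, -0.52, -0.48, -0.40 and -0.53 in Rhine. The arrays of each sediment lay close together and far from the other sediment, with a log2 difference of 1.28 (SE 0.20, adjusted p = 0.107 by limma), or 2.42-fold. *cpr-1* encodes a cathepsin B-like cysteine protease of the intestine. Its ratios were 0.65, -0.15, 0.80, 0.03 and 0.73 in Elbe and -1.01, -0.83, -0.17, -0.54 and -1.03 in Rhine, so that the lowest Elbe array and the highest Rhine array nearly met, and the log2 difference was 1.13 (SE 0.28, adjusted p = 0.254). *lys-7* encodes a lysozyme of antibacterial defence. It read 0.52, 0.72, 0.76, 0.61 and 0.67 in Elbe against -0.08, -0.13, -0.33, 0.25 and -0.40 in Rhine, with a log2 difference of 0.79 (SE 0.21, adjusted p = 0.285). For these 3 genes the difference sat in the worm channel. Cy5 signals were 1.43, 1.20 and 0.77 higher in Elbe for *cat-4*, *cpr-1* and *lys-7*, and the reference differed by 0.18, 0.21 and 0.25. With probes restricted to a spot confidence of at least 0.5, which left 736 probes, all 3 passed the adjusted threshold (adjusted p = 0.0007 for *cat-4* and 0.0198 for *cpr-1* and *lys-7*). Danube levels lay between the sediments for all 3, at 0.55 ± 0.37, -0.02 ± 0.29 and 0.33 ± 0.52 (SD, n = 5).

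The other genes of the 12 with the lowest unadjusted p in this direction were dimmer. W02G9.4 had the largest difference, 3.52 (SE 0.72, adjusted p = 0.192). Its Elbe values spanned 0.90 to 2.19 and its Rhine values -3.86 to 0.31. Y110A7A.7 and Y73B6BL.14 differed by 2.99 (SE 0.65) and 2.92 (SE 0.61), with 1 Rhine array inside the Elbe range for each. F55G11.1 differed by 1.49 (SE 0.32), C28C12.1 by 0.97 (SE 0.23) and F44D12.2 by 0.95 (SE 0.23), each without overlap of the arrays. *san-1*, a component of the spindle checkpoint, differed by 1.77 (SE 0.44). *vab-8*, a kinesin-like protein of cell and axon migration, differed by 1.70 (SE 0.44) at one probe and by 0.46 (SE 0.52) at its other probe. *lin-28*, an RNA-binding regulator of developmental timing, was among the 5 largest differences of matched genes at 2.09 (SE 0.79), with 1 low Elbe array at 0.09 and 1 high Rhine array at 3.03. For 8 of the 12 the reference channel carried the larger part of the difference, led by Y110A7A.7, where Cy3 was 2.78 lower and Cy5 0.70 higher in Elbe. *vab-8* and F55G11.1 had slightly lower Cy5 signals in Elbe.

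**Figure D2:**
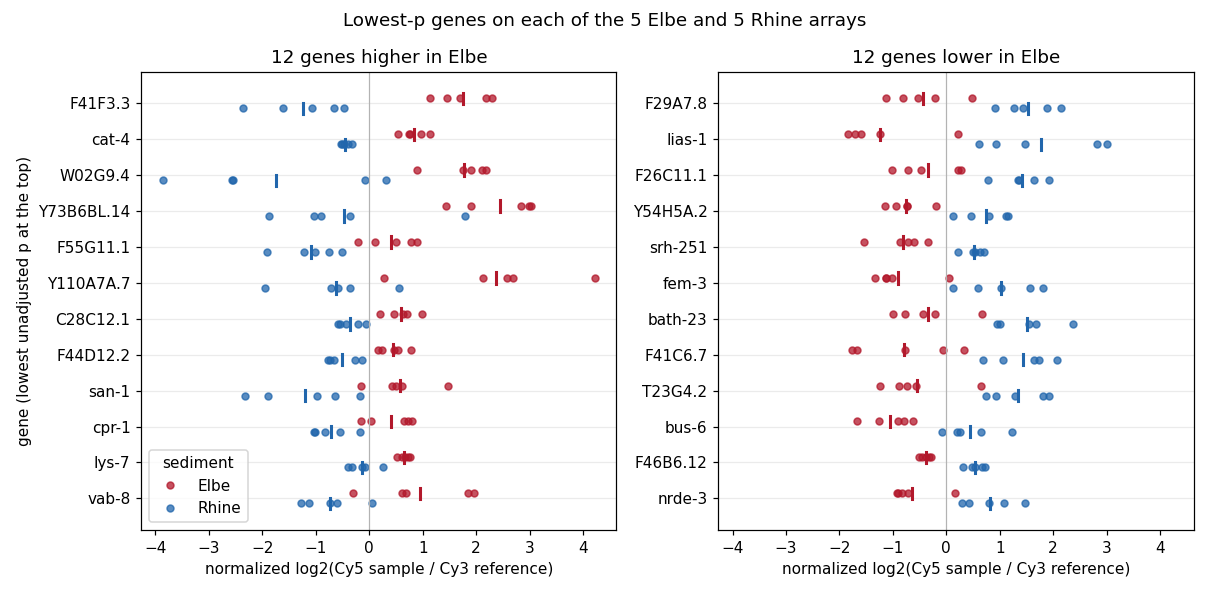
Points are the normalized log2 ratios of single arrays, red for 5 Elbe and blue for 5 Rhine arrays, and vertical strokes are group means, for the 12 genes higher (left) and the 12 lower (right) in Elbe with the lowest unadjusted p. *cat-4*, *lys-7* and F46B6.12 show tight groups, whereas W02G9.4 and Y110A7A.7 spread over several log2 units.

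No gene fell at the adjusted threshold. The probe nearest to it, W07G9.1, matched no gene in the reference table and was singled out after its values were seen. It read -1.47, -1.40, -1.36, -1.47 and -1.43 in Elbe and 0.00, -0.01, -0.28, 0.19 and -0.14 in Rhine, with a log2 difference of -1.38 (SE 0.19, adjusted p = 0.0506 by limma). The Elbe arrays agreed within 0.05 (SD, n = 5), and the Danube mean was -0.93 ± 0.73 (SD, n = 5). It passed the adjusted threshold in the methods' t-test, with array weights and after scaling the arrays to each other.

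The 12 matched genes with the lowest p in the lower direction differed by -0.93 to -2.999, and the arrays of the sediments did not overlap for any of them. That follows largely from the choice by lowest p, and 2.41% of all kept probes had no overlap in this direction. *lias-1*, the mitochondrial lipoic acid synthase, had the largest difference. Its ratios were -1.59, 0.23, -1.70, -1.84 and -1.25 in Elbe and 2.81, 3.01, 0.61, 1.48 and 0.93 in Rhine, a difference of -2.999 (SE 0.55, adjusted p = 0.162). The Cy5 signal of *lias-1* was 1.45 lower in Elbe and the reference 1.51 higher. Its spot was above the lowest grade on 4 Elbe arrays and 3 Rhine arrays. *fem-3* promotes male development and, in hermaphrodites, spermatogenesis. It read -1.33, 0.04, -1.02, -1.13 and -1.12 in Elbe and 1.56, 1.82, 0.13, 1.03 and 0.59 in Rhine, a difference of -1.94 (SE 0.38, adjusted p = 0.183). *nrde-3*, an Argonaute of nuclear RNA interference, differed by -1.46 (SE 0.31), but its Cy5 signal was 0.20 higher in Elbe and the whole difference lay in the reference, which was 1.65 higher. *srh-251*, a predicted chemoreceptor, differed by -1.34 (SE 0.26) and *bus-6*, a gene of bacterial susceptibility of the worm surface, by -1.50 (SE 0.31). F46B6.12 had the smallest difference, -0.93 (SE 0.19), with Elbe values from -0.51 to -0.28 and Rhine values from 0.31 to 0.72. For *bus-6* and F46B6.12 the Cy5 signals were 0.77 and 0.51 lower in Elbe and the reference 0.79 and 0.52 higher. F26C11.1 and Y54H5A.2 differed by -1.75 (SE 0.32) and -1.48 (SE 0.28).

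For 8 of these 12 genes the highest Elbe array was replicate 2, and for 7 the highest Rhine array was replicate 2. Over all 6380 kept probes these arrays were highest in 1598 and 794. F29A7.8, *bath-23* (annotated as a pseudogene), F41C6.7 and T23G4.2 differed by -1.97 (SE 0.35), -1.86 (SE 0.37), -2.23 (SE 0.45) and -1.89 (SE 0.38). F29A7.8 read -1.13, 0.48, -0.21, -0.81 and -0.53 in Elbe and 1.26, 1.88, 1.43, 2.15 and 0.92 in Rhine. T23G4.2 read -1.24, 0.66, -0.73, -0.88 and -0.57 in Elbe and 1.80, 1.93, 0.74, 1.28 and 0.93 in Rhine. The signals were large in the worm channel, with a median Cy5 signal of 33325.1 in Rhine against 4564.5 in Elbe for F29A7.8 and of 43192.1 against 3883 for T23G4.2. Over all 499 lower probes, Rhine replicate 1 was the highest Rhine array in 197, beside 1954 of all 6380 kept probes. Without Rhine replicate 1, 452 probes were lower, 343 of them among the 499. The widest of the other differences were those of *clec-49* (-2.54, SE 0.98), F08G2.5 (-2.51, SE 1.10), W03F9.2 (-2.34, SE 0.50) and *ech-4* (-2.32, SE 0.90). The arrays of W03F9.2 did not overlap, whereas the others held extreme arrays, such as -5.82 on Elbe replicate 5 for F08G2.5 and -5.45 on Elbe replicate 1 for *clec-49*.

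**Figure D3:**
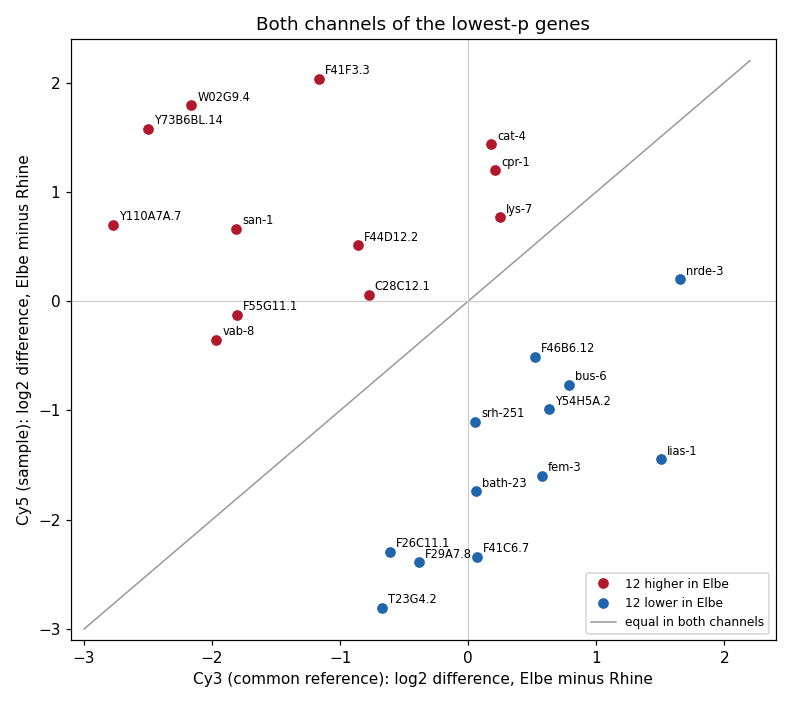
Each point is 1 of the 24 lowest-p genes, with the log2 difference of the Cy3 reference signal on the x axis and of the Cy5 worm signal on the y axis, both Elbe minus Rhine and centred on the kept probes. The reference is the same RNA pool on every array, and Cy5 carried the larger part of the difference in 4 of the 12 higher and 8 of the 12 lower genes.

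Of 22 kept cytochrome P450 probes, 2 (9.09%) were higher and 3 (13.6%) lower past the methods' thresholds, against 2.71% and 7.82% of all kept probes, and their median log2 difference was -0.23 beside -0.16 overall. *cyp-34A2* (1.29, SE 0.51) and *cyp-13A2* (0.66, SE 0.28) were the higher members. *cyp-13A4* (-1.08, SE 0.43), *cyp-33E2* (-0.74, SE 0.33) and *cyp-33C2* (-0.97, SE 0.44) were the lower ones, and the adjusted p of all 5 was 0.424 or more by limma. Without Elbe replicate 4 the list had 0 higher and 0 lower, and without Rhine replicate 1 it had 0 and 1. Members of the cyp-13A family thus lay on both sides, *cyp-13A2* at 0.80 ± 0.35 in Elbe and 0.14 ± 0.46 in Rhine, *cyp-13A4* at -1.12 ± 0.66 and -0.04 ± 0.78 (SD, n = 5). Of 18 glutathione S-transferases, *gst-1* was higher (0.63, SE 0.25, but -0.07 with median centring alone) and *gst-22* lower (-0.64, SE 0.28), and *gst-14* differed by -0.57 (SE 0.29). None of 17 UDP-glucuronosyltransferase and 16 ABC transporter probes passed the thresholds, and 1 of 13 short-chain and alcohol dehydrogenase probes was lower. Nuclear hormone receptors, many of which are ligand-regulated transcription factors, had 5 higher and 9 lower of 71 and a median of -0.26.

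Of the stress genes, none of 27 kept heat shock and J protein probes passed the thresholds, and their median of -0.06 lay above that of all probes. The counts were 0 higher and 7 lower with median centring alone and 1 and 3 with 1 loess curve per array. They were 0 and 3 with array weights and 1 and 0 with arrays centred on the kept probes. The lowest p-values were those of the small heat shock proteins *hsp-12.6* (-0.68, SE 0.32), *hsp-12.1* (0.63, SE 0.30) and *hsp-17* (-1.28, SE 0.66). Of 24 metal handling probes, 1 was higher and 2 lower. *smf-3*, an importer of divalent metals, differed by -0.61 (SE 0.25) and *zipt-17*, of the ZIP zinc transporter family, by -1.54 (SE 0.42). *hrg-13* differed by 1.62 (SE 0.49) at one probe and by -0.51 (SE 0.26) at its other probe, so that its direction depended on the probe. Of 19 antioxidant probes, 4 (21.1%, beside 7.82% of all kept probes) were lower and 0 higher, with a median of -0.31. With arrays centred on the kept probes 2 were lower, and in the Cy5 signal alone 1 was, with a median 0.03 below that of all probes. *msra-1*, a methionine sulfoxide reductase, differed by -1.68 (SE 0.44), *gpx-2*, a glutathione peroxidase, by -1.10 (SE 0.37), *trx-1*, a thioredoxin, by -1.05 (SE 0.44) and *prdx-3*, a peroxiredoxin, by -0.62 (SE 0.27), with adjusted p-values from 0.285 to 0.454 in limma. *msra-1* read -0.42 to 1.58 in Elbe, where replicate 2 alone was above 0, and 1.00 to 2.59 in Rhine. The Cy5 signal was 0.09 higher in Elbe for *msra-1* and 0.11 higher for *trx-1*, and for both the reference carried the difference. For *gpx-2* the Cy5 signal was 1.49 lower in Elbe and the reference 0.32 lower.

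Of 40 kept lysozyme, saposin-like and antimicrobial peptide probes, 5 (12.5%, beside 2.71% of all kept probes) were higher and 2 (5%, beside 7.82%) lower in Elbe, and the median was 0.07 beside -0.16 for all kept probes. Beside *lys-7*, the lysozymes *ilys-3* and *lys-1* differed by 0.71 (SE 0.24) and 0.67 (SE 0.23). *lys-1* read -0.23 to 0.42 in Elbe and -0.95 to -0.29 in Rhine, and the lowest Elbe array of *ilys-3* at -0.03 lay above the highest Rhine array at -0.12, so that neither overlapped, although *ilys-3* turned to -0.07 with median centring alone. The antimicrobial peptide genes *cnc-1* and *abf-6* differed by 0.86 (SE 0.32) and 1.00 (SE 0.39), the latter turning to -0.86 with 1 loess curve per array. The saposin-like *spp-8* (-1.38, SE 0.44) and the infection response gene *irg-4* (-0.75, SE 0.32) were lower. All adjusted p-values of the list were 0.285 or more. These counts turned with the normalization. They were 0 higher and 5 lower with 1 loess curve per array and 1 and 9 with median centring alone, against 8 and 1 in the Cy5 signal alone. The list's median lay above that of all probes in 29 of 30 other settings, and 0.04 below it with median centring alone. Several of these settings changed only the p-values or shifted all probes alike, so that they could not move this value. C-type lectins, secreted carbohydrate-binding proteins of which many respond to microbes, had 1 higher and 6 lower of 71, or 8.45% lower beside 7.82% of all kept probes, and a median of -0.09. In the Cy5 signal alone they had 8 higher and 2 lower. *clec-52* differed by 0.92 (SE 0.26), and *clec-7*, *clec-190* and *clec-83* by -0.72 (SE 0.21), -1.09 (SE 0.30) and -1.07 (SE 0.32), without overlap of the arrays. *clec-56* (-0.63, SE 0.23), *clec-40* (-1.44, SE 0.65) and *clec-49* overlapped.

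Against 2.71% higher and 7.82% lower of all kept probes, the proteasome, translation factor and fatty acid lists had 24, 19.2 and 18.2% lower and none higher. Of 25 kept proteasome probes, 6 were lower and 0 higher, with a median of -0.39. They were the core subunits *pbs-7* (-0.73, SE 0.22), *pbs-5* (-0.84, SE 0.27) and *pas-3* (-0.95, SE 0.41) and the regulatory particle genes *rpn-2* (-0.87, SE 0.32), *rpn-13* (-0.58, SE 0.23) and *dss-1* (-1.05, SE 0.42). *pbs-7* read -0.28 to 0.42 in Elbe and 0.52 to 0.87 in Rhine. Of 22 cathepsins and aspartic proteases, *cpr-1* (4.55%) was higher and *cpr-6* (-0.88, SE 0.32), *tag-196* (-0.97, SE 0.33) and *cpz-2* (-1.11, SE 0.41) were lower (13.6%), with a median of -0.43. Of 26 translation factor probes, 5 were lower and 0 higher, and their median of -0.51 was the lowest of the lists with 10 or more kept probes. They were *eif-3.F* (-1.30, SE 0.46), *eef-2* (-1.04, SE 0.44), *eif-6* (-0.70, SE 0.28), *eif-1* (-0.64, SE 0.23) and *eef-1B.2* (-0.61, SE 0.25). The 73 cytosolic ribosomal protein probes had a median of -0.08 with 1 lower and 0 higher. Of 44 probes of fatty acid synthesis and breakdown, 8 were lower and 0 higher, while their median of -0.18 was close to that of all probes. *lbp-7*, a fatty acid binding protein, differed by -1.87 (SE 0.45) and did not overlap, and *fat-6*, a stearoyl-CoA desaturase, by -1.44 (SE 0.49). For *lbp-7* and *fat-6* the Cy5 signals were 0.11 and 0.28 lower in Elbe, and the reference was 0.99 and 0.75 higher. The elongase *elo-3* (-0.69, SE 0.27), the dehydrogenase *acdh-4* (-0.76, SE 0.31), the acyl-CoA synthetase *acs-18* (-0.89, SE 0.37), the lipase *lips-17* (-0.89, SE 0.37) and the acyltransferase *mboa-6* (-0.92, SE 0.40) followed, beside *ech-4*. No adjusted p of these lists was under 0.254.

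With arrays centred on the kept probes the lower calls of the 3 lists were 4, 4 and 5. In the Cy5 signal alone, with a median of 0.11 over all kept probes, proteasome genes had 1 higher and 0 lower probes and a median 0.06 below that of all probes, and translation factors had 2 higher and 1 lower and a median 0.01 above it. Cathepsins and aspartic proteases had 6 higher and 0 lower in that signal, and fatty acid genes 1 higher and 0 lower. The part of the reference channel in these counts was not tested.

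**Figure D4:**
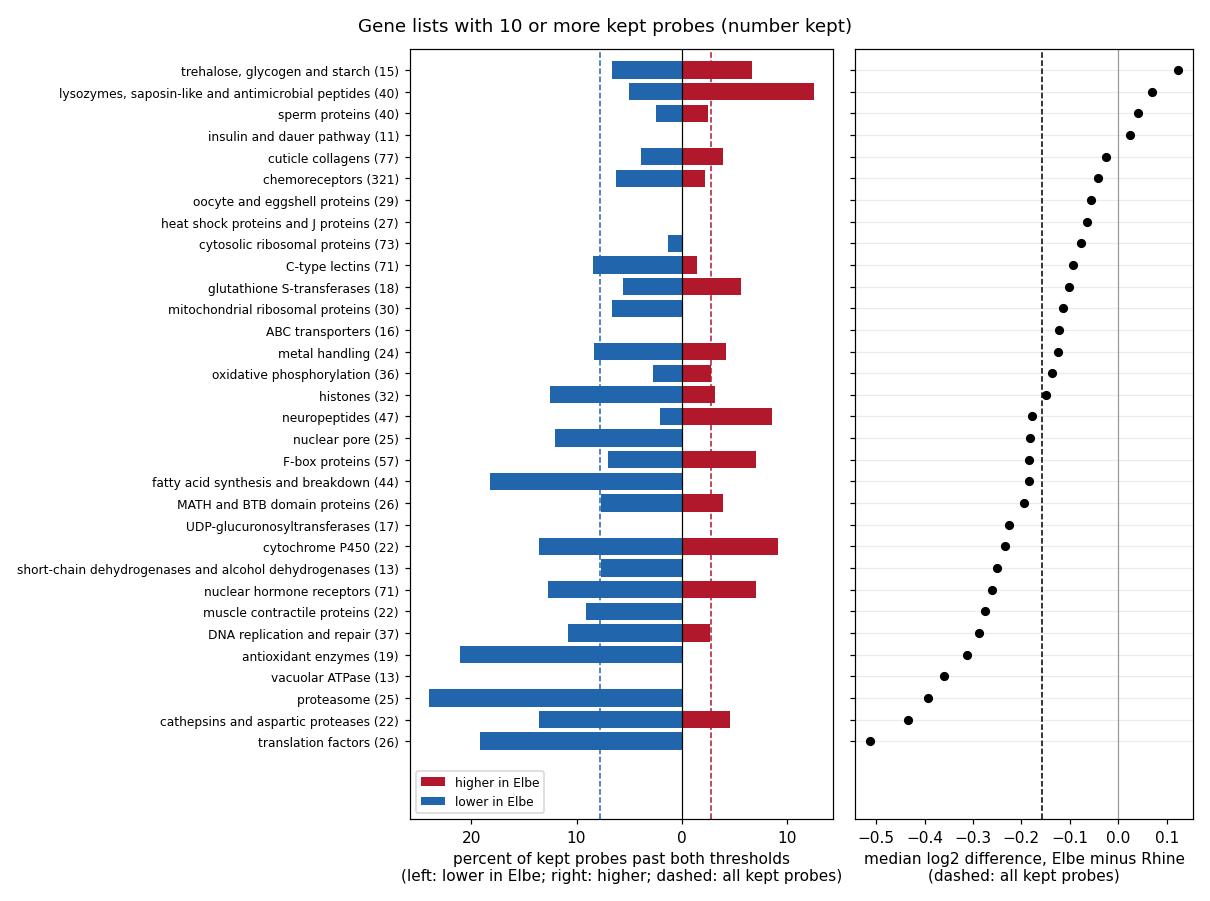
Bars give the percent of each list's kept probes that were higher (red, right) or lower (blue, left) in Elbe past both thresholds, and points give the list's median log2 difference, for lists with 10 or more kept probes. Dashed lines are all kept probes (2.71%, 7.82% and -0.16), with lysozymes and antimicrobial peptides above them and translation factors lowest.

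Genes of the nervous system gave single differences. Of 8 kept probes of tetrahydrobiopterin and monoamine metabolism, *cat-4* alone passed the thresholds. *pah-1*, the phenylalanine hydroxylase that uses the same cofactor, differed by -0.61 (SE 0.41) and *comt-3*, of the catechol methyltransferase family, by -0.31 (SE 0.20). Of 47 neuropeptide probes, 4 (8.51%, beside 2.71% of all kept probes) were higher and 1 (2.13%, beside 7.82%) lower. The counts were 0 and 4 without Elbe replicate 4, 1 and 1 without Rhine replicate 1 or with array weights, 1 and 5 with 1 loess curve per array, and 1 and 9 with median centring alone. *snet-1* (0.61, SE 0.24), *nlp-67* (1.14, SE 0.48), *nlp-24* (1.20, SE 0.52) and *nlp-33* (0.87, SE 0.40) were higher and the FMRFamide-like *flp-27* (-1.48, SE 0.61) was lower, with adjusted p-values of 0.422 or more by limma. Of 321 kept chemoreceptor probes among 1305 on the array, 7 (2.18%) were higher and 20 (6.23%) lower, close to the 2.71% and 7.82% of all kept probes, with a median of -0.04. The counts were 13 and 13 with arrays centred on the kept probes and 16 and 8 in the Cy5 signal alone. Those with the lowest p were *srh-251*, *srh-307* (-1.62, SE 0.43), annotated as a pseudogene, and *srh-236* (-0.86, SE 0.23). Chemoreceptors, lectins, histones and sperm proteins belong to large families, and a long oligonucleotide probe can bind several close relatives.

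The calls of reproduction and cuticle genes stand beside 2.71% higher and 7.82% lower of all kept probes, and the vitellogenin list is too short for that comparison. None of 5 kept vitellogenin probes, which encode yolk proteins, passed the thresholds. *vit-6* differed by 0.25 (SE 0.22), *vit-1* by -0.63 (SE 0.33) and *vit-3* by -0.63 (SE 0.46), and the list's median was -0.47. None of 29 oocyte and eggshell probes passed, and of 40 sperm protein probes 1 was higher and 1 lower (2.5% each). Of 77 cuticle collagen probes, 3 were higher and 3 lower (3.9% each), with a median of -0.03. Each marker of intestine, muscle, pharynx, neurons, hypodermis, germ line, sperm and molt that the array carried passed the lowest grade on 1 or more of the 10 arrays. The summed Cy5 signal of the 6 intestine markers, relative to the array's median kept probe, ran from 27.2 to 40.8 in Elbe and from 19.5 to 28.98 in Rhine, and *cpr-1* is one of them and the only one past the thresholds. Their mean log2 ratios overlapped, from -0.11 to 0.36 in Elbe and from -0.34 to 0.11 in Rhine, and *vit-2* and *asp-1* differed by -0.013 and -0.27. The range for the 3 body wall muscle markers was 3.98 to 10.2 and 4.54 to 11.02, and that for the 6 germ line markers 4.03 to 6.51 and 3.38 to 6.14. The mean log2 ratios of the muscle markers did not overlap, at -0.332 to -0.039 in Elbe and -0.03 to 0.887 in Rhine. Those of the germ line markers overlapped, at -0.39 to 0.624 and -0.257 to 0.25. Past the thresholds, *unc-15* of muscle (-0.935) and *egl-3* of neurons (-0.608) were lower and *col-10* of the hypodermis (0.514) was higher. Their adjusted p-values were 0.39 or more by limma. Other kept neuron markers went both ways, *unc-119* (1.211) and *snb-1* (0.191) up and *rab-3* (-0.249) and *egl-21* (-0.194) down. *col-19* of the hypodermis differed by -0.266, opposite to *col-10*, and *unc-54* (-0.166) and *myo-3* (-0.124) of muscle were below 0 like *unc-15*. In whole worms, the amount of a tissue and the transcript per cell cannot be told apart, and the part of the intestine signal in the lysozyme and protease values was not tested.

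Of other lists, DNA replication and repair had 1 higher and 4 lower of 37, histones 1 and 4 of 32, nuclear pore 0 and 3 of 25, muscle contractile proteins 0 and 2 of 22, and oxidative phosphorylation 1 and 1 of 36. Trehalose, glycogen and starch genes had 1 and 1 of 15 and the highest median of the lists with 10 or more kept probes, 0.12. The 13 vacuolar ATPase and 11 insulin and dauer pathway probes had 0 calls, with medians of -0.36 and 0.02. F-box proteins had 4 and 4 of 57, MATH and BTB domain proteins 1 and 2 of 26, mitochondrial ribosomal proteins 0 and 2 of 30, acetylcholine, GABA and glutamate genes 0 and 1 of 4, and 9 SNARE and 4 larval molt probes 0. Beside 7.82% of all kept probes, the lower share was 12.5% for histones, 12% for nuclear pore, 10.8% for DNA replication and repair and 9.09% for muscle. It was 25% for the 4 acetylcholine, GABA and glutamate probes. Beside 2.71% of all kept probes, the higher share was 7.02% for F-box proteins and 6.67% for trehalose, glycogen and starch genes. None of these lists had more than 5 calls in a direction, so that each share rests on few probes.

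Probes graded in only 1 sediment fell out of the test and are given as signals. Of 19084 probes, 41 for Elbe and 46 for Rhine were graded on all 5 arrays of that sediment but on no more than 1 of the other. At a confidence of at least 0.5 the numbers were 11 and 0. In most of them both channels moved together, for 32 of 41 and 36 of 46 probes, so that the ratio changed less than the signals. The ratio was higher in Elbe for 17 of the 41 and lower in Elbe for 27 of the 46. The genes named here were picked for the largest Cy5 differences among these probes, so that their Cy5 gaps follow from the choice. C33C12.4 had a median Cy5 signal of 19071.9 in Elbe and 482.1 in Rhine and a median Cy3 signal of 12160.5 and 1074.8, with a ratio difference of 0.34. *ruvb-1*, a DNA helicase of chromatin remodelling, had Cy5 medians of 6710.9 and 485 and Cy3 medians of 583.6 and 1090.9. *pkd-2*, a polycystin channel of male sensory neurons, had Cy5 medians of 3974.7 and 319.3 and a ratio difference of -0.49. The chemoreceptor *srg-7*, the F-box gene *fbxa-185* and ZK662.2 were also graded in Elbe, with Cy5 medians of 8735.1, 5791.2 and 8990.8 against 542, 711.4 and 1165.2. In Rhine the pseudogene F35E2.3 had a Cy5 median of 6810.5 against 823.4 in Elbe and R07G3.8 one of 5621 against 1288.4. *srh-112* had 11175.5 against 1855, with a ratio difference of -1.72, and F44F4.9, *emb-30*, a subunit of the anaphase-promoting complex, and *gpaa-1*, of GPI anchor attachment, had 4339, 3662.5 and 2940.5 against 1164.2, 650.8 and 1191.6. The same pool of reference RNA was on every array, so a Cy3 signal that differs between sediments is not a difference between the worms.

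**Figure D5:**
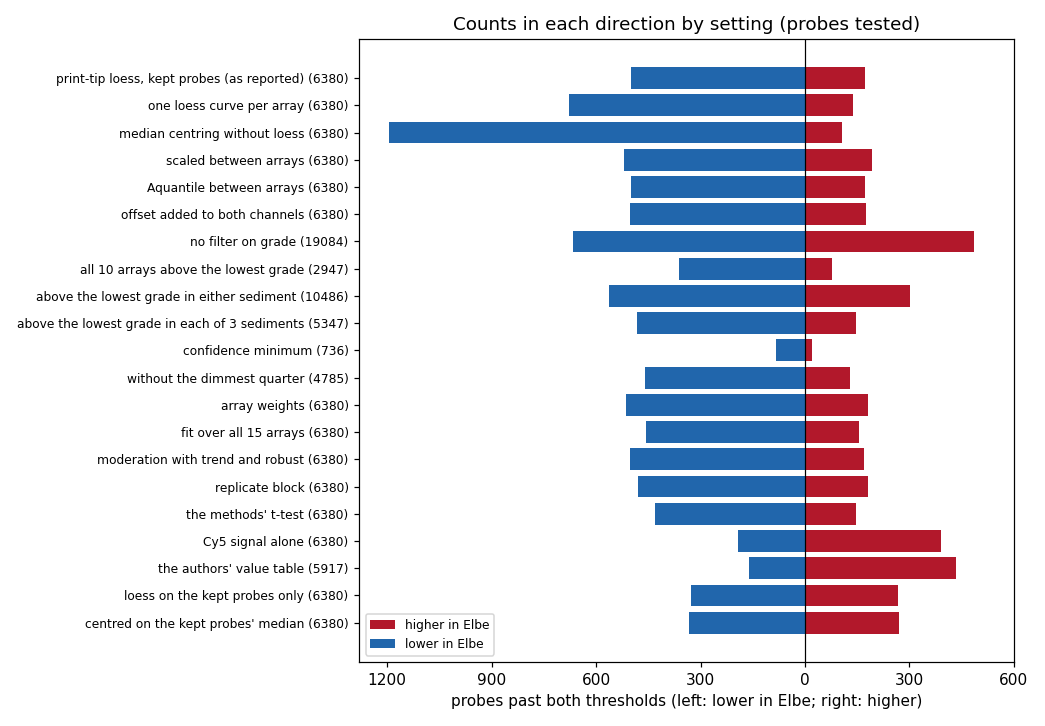
Bars give the number of probes higher (red, right) and lower (blue, left) in Elbe past both thresholds under each setting, with the number of probes tested in brackets. The counts of 173 and 499 turned to 270 and 334 with arrays centred on the kept probes and to 392 and 193 in the Cy5 signal alone.

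The calls also varied with brightness. Of the 5 equal groups of kept probes by mean signal, with 1276 probes each, the dimmest held 39 higher and 72 lower probes, the fourth 32 and 132 and the brightest 29 and 101. The median difference ran from -0.07 in the dimmest to -0.22 in the fourth group and -0.13 in the brightest.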

How the data were processed

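Each of the 15 two-colour arrays held 22176 spots in 48 print-tip blocks. The authors quantified the images with BlueFuse for Microarrays 3.4, and the deposited spot tables give intensity per channel, a confidence score and a quality grade. The deposited value table holds a ratio to each gene's own median over arrays after the authors' normalization, and 18014 of its 18653 rows matched the Cy5 signal of 1 identifier (r above 0.999), so that it follows Cy5 and not Cy5 over Cy3. Gene spots (19806, for 19084 probes) were used. Log2(Cy5/Cy3) was normalized by print-tip loess (span 0.3, 4 iterations), and replicate spots were averaged by probe name. Probes entered the test when graded better than the lowest class on 3 or more arrays per sediment. Elbe was tested against Rhine with limma 3.58.1 in R 4.3.3 and Benjamini-Hochberg adjustment over 6380 probes, after the code was tested on simulated data. The methods' thresholds were an unadjusted p under 0.05 with a ratio of at least 1.4 or at most 0.7. Gene names came from RefSeq, which matched 18089 of 19084 probes by sequence name. Named genes were those past the adjusted threshold, the 12 per direction with the lowest p, the 5 matched genes per direction with the largest difference past the methods' thresholds, the 3 members with the lowest p and up to 8 past the thresholds in each described list, and up to 6 per sediment among probes graded in 1 sediment. Both probes were given for genes with several. The members and lists were chosen with earlier results of these data known. Alternatives changed the normalization, filter, moderation, samples and channel. Loess on, and centring on, the kept probes were added after seeing the data. The number of arrays limits the precision. The headers name no slide or scan batch that differs between the Elbe and the Rhine arrays.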

Additional observations from a re-analysis of the deposited data

Results flagged for a closer look

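Within groups of 5 arrays, 15 of 194 tested sets of values (7.73%) held 1 array far from the other 4, where chance gives about 1 in 20. The measure is the gap to the nearest array divided by the whole range. Elbe replicate 2 was the high array for *lias-1* (0.713), *fem-3* (0.777), *nrde-3* (0.807), *msra-1* (0.862), *gpx-2* (0.816) and *rpn-2* (0.825). For *msra-1* it read 1.58 and the next Elbe array -0.14. Elbe replicate 4 was low for *lin-28* (0.785), with 0.09 against 2.83 or more. Elbe replicate 5 was high for *trx-1* (0.726) and low for F08G2.5 (0.721). Rhine replicate 1 was high for *srh-307* (0.726), *rpn-13* (0.768) and *pas-3* (0.843) and in its median Cy3 signal (0.718). For *pas-3* it read 2.30 and the next Rhine array 0.38. Rhine replicate 5 was high for *lin-28* (0.771), and Rhine replicate 2 was low for *lips-17* (0.745).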

How the results depend on the processing

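The single adjusted call stood at 1 probe under most normalizations. It became 2 with array weights, after scaling the arrays to each other and with spots graded in each of 3 sediments, 3 without the dimmest probes (4785 tested) and in the methods' t-test, 12 among the 2947 probes graded on all 10 arrays and 14 among the 736 with a confidence of at least 0.5. The 3 of the t-test were *cat-4*, F46B6.12 and W07G9.1, where F41F3.3 lost its call (adjusted p = 0.128), and F41F3.3 was not among the probes tested in the last pair of settings. It became 0 without the grade filter, with a grade in either sediment, over all 15 arrays, in the Cy5 signal alone, in the authors' value table and with loess on the kept probes, and the adjusted p of F41F3.3 was 0.488, 0.138, 0.0902, 0.377 and 0.126 in these settings in turn, leaving out the value table, in which it was not matched. With the replicate block the count was 0 (F41F3.3 adjusted p = 0.0508), with 180 higher and 480 lower probes. The deviations of same-numbered Elbe and Rhine arrays correlated weakly across probes (r from -0.008 to 0.091, median 0.003). Differently numbered arrays gave r from -0.05 to 0.049 (median -0.011). No label states a pairing, and 5 same-numbered pairs are too few to tell whether the numbers pair the arrays. Leaving out 1 array gave 0 to 2 adjusted calls, 132 to 190 higher and 374 to 547 lower probes, and 62 to 86 and 186 to 251 without overlap.

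Counts of higher and lower probes were 106 and 1196 with median centring alone, 486 and 667 without the grade filter, 78 and 363 on all 10 arrays, 302 and 563 with a grade in either sediment, and 19 and 83 at the confidence minimum. They were 392 and 193 in the Cy5 signal alone, 435 and 162 in the value table, which follows Cy5, 267 and 328 with loess on the kept probes and 270 and 334 with centring on them, the last pair of settings chosen after seeing the data. Counts without overlap were 19 and 405, 116 and 220, 27 and 102, 73 and 177, and 9 and 29 in the first 5 of these settings, and 109 and 29, 127 and 27, 70 and 120, and 73 and 107 in the last 4. Probes graded in 1 sediment numbered 11 for Elbe and 0 for Rhine at the confidence minimum.

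Of 93 named probes, 71 kept their direction in every setting that held them, and 39 of 2647 values reversed. Several settings changed only the p-values and could not reverse a direction. In the Cy5 signal alone and in the value table, differences were 0.33 and 0.36 for *nrde-3*, -0.0285 and -0.0574 for F55G11.1, -0.22 and -0.15 for *vab-8*, 0.0638 and 0.0767 for *eif-1*, 0.03 and 0.0465 for *cpr-6*, 0.22 and 0.21 for *clec-56*, 0.10 and 0.13 for *eef-1B.2*, 0.0022 and 0.0283 for *flp-27*, 0.15 and 0.20 for *acs-18*, 0.46 and 0.42 for *irg-4*, 0.31 and 0.41 for *eef-2*, 0.10 and 0.14 for *cyp-33C2*, 0.20 and 0.24 for *hsp-17*, 0.19 and 0.17 for *vit-1*, 0.23 and 0.29 for *pah-1* and 0.0923 and 0.10 for *vit-3*. *trx-1* was 0.0607 in the first and *spp-8* 0.0228 in the second. Median centring alone gave -0.0664 for *ilys-3* and for *gst-1* and -0.40 for *vit-6*, and 1 loess curve per array gave -0.86 for *abf-6* and -0.0034 for *vit-6*. The cause was not tested. A block for slide or scan was not run, since the headers name no batch that differs between the Elbe and the Rhine arrays.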
